A study of Mus musculus with 12 samples.

Results

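Inhibitory and CD28-family receptors were followed in lymph node cells that had or had not met antigen, with and without protein kinase D2 (PKD2). The 10 genes were Pdcd1, Ctla4, Lag3, Havcr2, Tigit, Cd160, Btla, Cd274, Icos and Cd28. Their probe sets were those annotated to exactly 1 of these symbols, 15 of the 45037 probe sets tested, and they covered 9 of the 10 genes. Each gene was read from its probe set with the highest mean over the 12 arrays, and the others served as a check. Tigit is not analysed here. The same choice of 1 probe set gave 18193 genes over the whole array.

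T cells carry surface receptors that tune the signal of the antigen receptor. CD28 and ICOS add to it when they meet their ligands, whereas CTLA-4, PD-1 (encoded by Pdcd1), BTLA, LAG-3, TIM-3 (Havcr2) and CD160 are known mainly for restraining it, and PD-L1 (Cd274) is a ligand of PD-1. Several of these genes are themselves induced by antigen receptor signalling, so that they serve both as signs of recent activation and as brakes on it. PKD2 is a serine kinase that is activated downstream of the T cell antigen receptor.

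All 4 groups came from mice of the P14-TCR strain, which carry a transgenic T cell receptor for gp33-41, a viral peptide shown by MHC class I molecules. The groups were PKD2-null cells cultured for 4 h with 62.5 ng/ml gp33-41, wild-type cells cultured with the peptide in the same way, PKD2-null cells cultured for 4 h with no peptide, and wild-type cells with no peptide. Each genotype had 3 mice, and cells of each mouse gave 1 array with and 1 without peptide, so that each group had 3 arrays. The lymph nodes were made into a suspension and cultured as a whole with no sort stated, and the way in which PKD2 was removed, the age of the mice and the T cells they had besides those with the transgenic receptor are not given in the sources used here. All values below are log2 signals as deposited, and a difference of 1 is a doubling of the signal. Probe sets bind with different strength, so a level was compared between groups within a gene and never between genes.

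The labels were first checked on the targeted gene. Prkd2 read 5.60, 5.47 and 5.36 in PKD2-null cells with peptide, against 8.16, 8.30 and 8.52 in wild-type cells with peptide, and 6.33, 5.87 and 5.80 in PKD2-null cells without it, against 10.17, 10.34 and 9.99 in wild-type cells. It was 17.97-fold lower in PKD2-null cells without peptide (limma, adjusted p = 2.7e-08). The mean over 5 CD8 T cell markers (Cd8a, Cd8b1, Cd3e, Cd3d and Cd3g) lay between 10.56 and 11.46 in all 12 arrays, far above the median of 4.70 over all values. With peptide 1 of these 5 fell in PKD2-null cells and 3 fell in wild-type cells (limma adjusted p under 0.05), and 0 rose. Such falls held for 19% of all genes in PKD2-null and 20.4% in wild-type cells. The median change over the 5 was -0.034 in PKD2-null and -0.64 in wild-type cells. The mean over 9 B cell markers lay between 7.69 and 9.44, so B cell transcripts were present as well. PKD2-null mouse 2 stood apart from the other PKD2-null mice: its B cell mean was the highest of its group (8.83 with peptide and 9.44 without), and its CD8 T cell mean the lowest (10.71 and 10.96). Calls of the 9 measured genes that change without this mouse are given both ways. Values of these genes whose sign turns with a mouse left out are given as ranges in the last section. In RNA of mixed cells, a lower signal from fewer cells of a type and one from less RNA per cell cannot be told apart.

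The first question was which of these receptors changed within 4 h of antigen. In both genotypes 5 of the 9 measured genes rose with peptide (Cd160, Cd274, Pdcd1, Btla and Icos) and Ctla4 fell, while Cd28, Lag3 and Havcr2 did not pass the test. A gene counted as called at an adjusted p under 0.05 in limma (Benjamini and Hochberg, over all 45037 probe sets). Of all genes, 31.5% were called in PKD2-null cells (12.5% higher and 19% lower) and 35.5% in wild-type cells (15.1% higher and 20.4% lower). The median change over the 9 genes was 0.97 in PKD2-null cells, where that over all genes was -0.020, and 1.17 in wild-type cells, where it was 0.014. For each of the 6 called genes the arrays with and without peptide did not overlap in either genotype, which held for 41.5% of all genes in PKD2-null and 46.7% in wild-type cells.

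**Figure D1:**
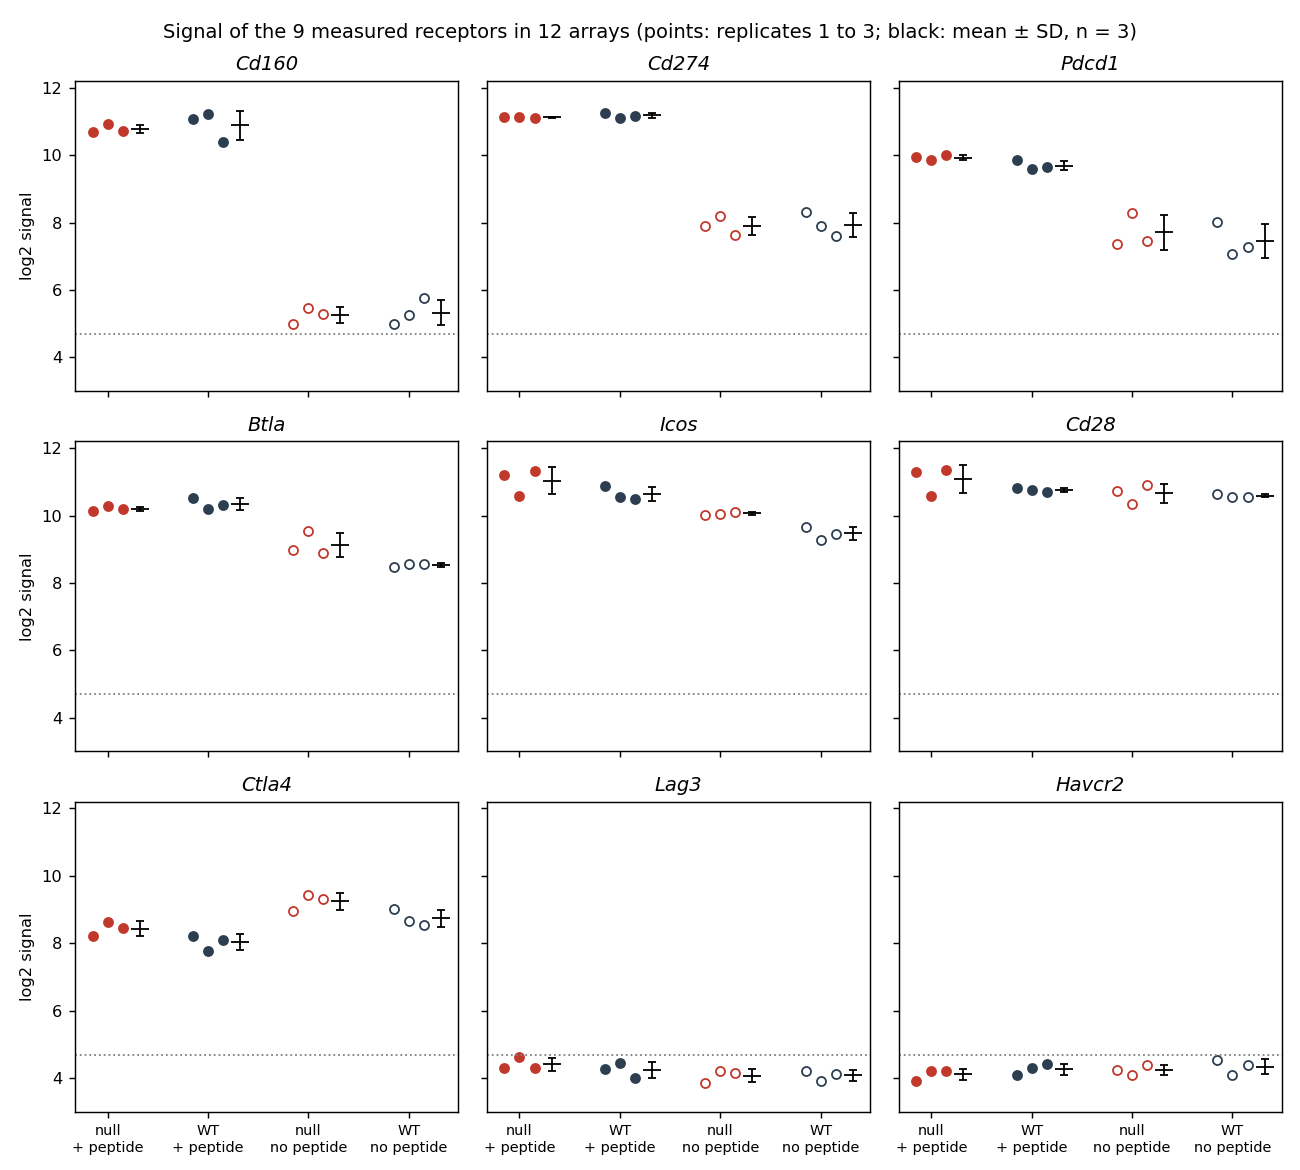
Log2 signal of the 9 measured genes in each of the 12 arrays, by group, 1 panel per gene; points are arrays (open without peptide), black marks are means with SD (n = 3), and the dotted line is the median of all values. Cd160 lies between 10.40 and 11.21 in the 6 arrays with peptide and between 4.99 and 5.75 in the 6 without.

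The sequences before the start sites of 4 genes are shown to place the responses beside the bases that precede them: the 3 largest rises (Cd160, Cd274 and Pdcd1) and the fall (Ctla4). They are the 250 bases upstream of the RefSeq start on build GRCm38.p6, written 5′ to 3′ in the direction of the gene. Cd160 has a pair of starts. Capitals mark matches, on either strand, to the NFAT core GGAAA or to the STAT core TTCNNNGAA. These matches shared no base with each other.
Cd160, first start, chr3:96829352-96829601, minus strand: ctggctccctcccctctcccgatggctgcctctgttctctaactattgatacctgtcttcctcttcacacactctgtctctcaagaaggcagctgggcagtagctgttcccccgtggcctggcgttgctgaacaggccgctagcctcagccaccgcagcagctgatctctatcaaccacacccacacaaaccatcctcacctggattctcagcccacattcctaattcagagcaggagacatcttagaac
Cd160, second start, chr3:96814522-96814771, minus strand: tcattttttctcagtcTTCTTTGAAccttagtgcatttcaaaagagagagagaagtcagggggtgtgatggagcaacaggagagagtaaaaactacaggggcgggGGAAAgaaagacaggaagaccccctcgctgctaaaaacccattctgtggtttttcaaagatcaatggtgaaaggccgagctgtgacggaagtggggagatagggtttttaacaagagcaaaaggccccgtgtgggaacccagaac
Cd274, chr19:29367188-29367437, plus strand: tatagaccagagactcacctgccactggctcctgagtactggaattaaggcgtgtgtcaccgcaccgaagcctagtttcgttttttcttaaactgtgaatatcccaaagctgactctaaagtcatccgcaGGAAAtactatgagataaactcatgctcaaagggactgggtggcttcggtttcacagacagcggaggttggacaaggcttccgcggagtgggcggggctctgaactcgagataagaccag
Pdcd1, chr1:94052554-94052803, minus strand: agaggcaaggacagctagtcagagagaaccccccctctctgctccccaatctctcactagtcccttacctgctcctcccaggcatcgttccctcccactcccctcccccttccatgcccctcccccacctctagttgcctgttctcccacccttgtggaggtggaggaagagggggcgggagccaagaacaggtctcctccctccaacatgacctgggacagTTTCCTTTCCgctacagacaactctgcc
Ctla4, chr1:60908775-60909024, plus strand: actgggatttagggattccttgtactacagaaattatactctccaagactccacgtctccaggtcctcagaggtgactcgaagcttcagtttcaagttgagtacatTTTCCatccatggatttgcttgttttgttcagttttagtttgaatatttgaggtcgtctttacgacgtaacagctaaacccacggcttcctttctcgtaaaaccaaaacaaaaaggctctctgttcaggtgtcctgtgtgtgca

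NFAT proteins and STAT proteins are transcription factors activated by calcium and by cytokine signals. Entries were at hand for 7 of the 10 genes (8 starts), and 6 motifs were searched in each. The NFAT core was in 5 of the 8 starts and in 55.6% of 32851 mouse promoters of this length, so it is a frequent string. It occurs 2 times before Pdcd1 and 2 times before Tigit, and 1 time each before Ctla4, Cd274 and the second Cd160 start. The STAT core was in 1 start (Cd160, second) and in 7.02% of all, and the AP-1 string TGANTCA in 1 start (Havcr2) and in 6.75%. The strings AAAGGTCA of the NR4A factors (1.34% of all promoters), that of the interferon-stimulated response element (2.98%) and GCGNGGGCG of the EGR factors (4.7%) were in 0 of the 8. The Btla window held none of the 6. A match is a run of letters and not a bound site, and a window without one says only that these letters are not in it.

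Cd160, which encodes a GPI-anchored receptor of cytotoxic T and NK cells that binds HVEM, showed the largest response of the 9. Its signals were 10.69, 10.92 and 10.72 in PKD2-null cells with peptide, against 5.00, 5.46 and 5.30 in PKD2-null cells without. In wild-type cells they were 11.06, 11.21 and 10.40 with peptide, against 4.99, 5.26 and 5.75 without. All 6 arrays with peptide lay far above all 6 without, and those without were little above the median of 4.70 over all values, where a low level is poorly resolved. The rise was 5.52 in PKD2-null cells (46-fold, SE 0.22, limma adjusted p = 1.1e-08) and 5.56 in wild-type cells (47.2-fold, SE 0.22, adjusted p = 3.4e-09). Among 18193 genes it ranked 7 in PKD2-null and 9 in wild-type cells. Its 3 other probe sets also rose, by 4.85, 1.16 and 3.79 in PKD2-null cells and by 5.07, 1.44 and 3.53 in wild-type cells, so the direction was shared and the size was not. Averaged over its 4 probe sets the rise was 3.83 in PKD2-null and 3.90 in wild-type cells. NK cells also carry CD160, and of 4 NK markers (Ncr1, Klrk1, Gzma and Klrd1) 0 rose and 1 fell with peptide in each genotype. The part of NK cells in the Cd160 signal was not tested.

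Cd274, the PD-1 ligand that activated T cells, B cells and myeloid cells can all carry, gave the second largest rise. It read 11.14, 11.13 and 11.11 in PKD2-null cells with peptide, against 7.90, 8.18 and 7.63 without. Wild-type cells had 11.26, 11.12 and 11.16 with peptide and 8.31, 7.90 and 7.59 without. With peptide the 6 arrays of both genotypes lay within a narrow band, and none overlapped an array without peptide. The increase was 3.22 in PKD2-null cells (9.33-fold, SE 0.17, limma adjusted p = 5e-08) and 3.25 in wild-type cells (9.52-fold, SE 0.17, adjusted p = 2.2e-08). Of 11 markers of myeloid and dendritic cells, 0 rose with peptide in PKD2-null cells and 1 rose in wild-type cells. The mean over the list was 5.66 to 6.13 with and 5.94 to 6.40 without peptide in PKD2-null cells. In wild-type cells it was 5.78 to 5.87 with and 5.68 to 6.01 without. The part of these cells in the Cd274 rise was not tested. The neighbour of Cd274 on chromosome 19, Pdcd1lg2, encodes the other PD-1 ligand. Pdcd1lg2 rose by 2.13 in PKD2-null cells (limma adjusted p = 2.9e-06) and by 2.31 in wild-type cells (adjusted p = 8.9e-07).

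Pdcd1, the receptor of both these ligands, also rose in every mouse. PKD2-null cells gave 9.95, 9.84 and 9.99 with peptide, against 7.36, 8.29 and 7.47 without. For wild-type cells the signals were 9.85, 9.58 and 9.64 with peptide and 8.01, 7.06 and 7.28 without. The arrays with peptide were close together, whereas those without spread over more than 1 log2 unit in all and included a high one in each genotype (PKD2-null mouse 2 and wild-type mouse 1). The change was 2.22 in PKD2-null cells (4.67-fold, SE 0.25, limma adjusted p = 2.4e-05) and 2.24 in wild-type cells (4.72-fold, SE 0.25, adjusted p = 1.5e-05).

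Btla encodes an inhibitory receptor of resting T and B cells that binds HVEM, as CD160 does. Its values in PKD2-null cells were 10.14, 10.27 and 10.19 with peptide and 8.98, 9.53 and 8.88 without. In wild-type cells they were 10.53, 10.19 and 10.30 with peptide and 8.47, 8.57 and 8.57 without. No array with peptide overlapped one without it, and the lowest 3 arrays of the 12 were the wild-type arrays without peptide. Btla rose by 1.07 in PKD2-null cells (2.1-fold, SE 0.15, limma adjusted p = 0.00013) and by 1.80 in wild-type cells (3.49-fold, SE 0.15, adjusted p = 1.1e-06). Of 9 B cell markers, 4 fell and 0 rose in PKD2-null cells (median change -0.57), and 5 fell and 1 rose in wild-type cells (-0.69). The part of B cells in the Btla rise was not tested.

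Icos, a co-stimulatory receptor of the CD28 family that activated T cells raise, went up less. Its signals were 11.21, 10.57 and 11.32 in PKD2-null cells with peptide, against 10.00, 10.06 and 10.12 without. Those of wild-type cells were 10.88, 10.56 and 10.48 with peptide, against 9.67, 9.28 and 9.45 without. PKD2-null mouse 2 had the smallest rise of the 6 mice, 0.51, where the other 5 rose by 1.02 to 1.28. The change was 0.97 in PKD2-null cells (1.96-fold, SE 0.18, limma adjusted p = 0.0012) and 1.17 in wild-type cells (2.25-fold, SE 0.18, adjusted p = 0.00021). Both other probe sets of Icos rose in both genotypes, by 0.80 to 1.14.

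Ctla4, the inhibitory receptor that competes with CD28 for CD80 and CD86 and that regulatory T cells carry at rest, was the 1 gene of the 9 to fall. It read 8.21, 8.63 and 8.46 in PKD2-null cells with peptide, against 8.97, 9.43 and 9.32 without. Wild-type cells gave 8.22, 7.77 and 8.11 with peptide and 9.01, 8.65 and 8.55 without. All 6 mice went down, and in neither genotype did the arrays with and without peptide overlap. It fell by 0.80 in PKD2-null cells (1.75-fold, SE 0.17, limma adjusted p = 0.0028) and by 0.70 in wild-type cells (1.62-fold, SE 0.17, adjusted p = 0.0058). Foxp3, the defining factor of regulatory T cells, went the other way: it averaged 5.94 ± 0.33 with and 5.27 ± 0.10 without peptide in PKD2-null cells, and 5.60 ± 0.39 with and 4.73 ± 0.25 without in wild-type cells (SD, n = 3), a rise of 0.67 in PKD2-null cells (limma adjusted p = 0.027) and of 0.86 in wild-type cells (adjusted p = 0.005). The rise of Foxp3 lost its call without PKD2-null mouse 1 (adjusted p = 0.089), 2 (0.14) or 3 (0.068) in PKD2-null cells, and without wild-type mouse 2 (0.068) in wild-type cells. Ikzf2, a second marker of regulatory T cells, fell by 0.92 in wild-type cells (adjusted p = 0.0015, but -0.47 and 0.059 as a mean over its probe sets). Its change in PKD2-null cells was -0.46 (adjusted p = 0.089). That change passed in 5 of 16 alternatives, among them the arrays paired by mouse (adjusted p = 0.015). Over the 16 the adjusted p ran up to 0.32. Of 4 markers of CD4 and regulatory T cells (Cd4, Zbtb7b, Foxp3 and Ikzf2), 1 had a higher mean with peptide (Foxp3) and 3 a lower one, in each genotype. Foxp3 in wild-type cells without peptide was close to the median of 4.70 over all values, where a low level is poorly resolved. The part of regulatory T cells in the Ctla4 signal was not tested.

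**Figure D2:**
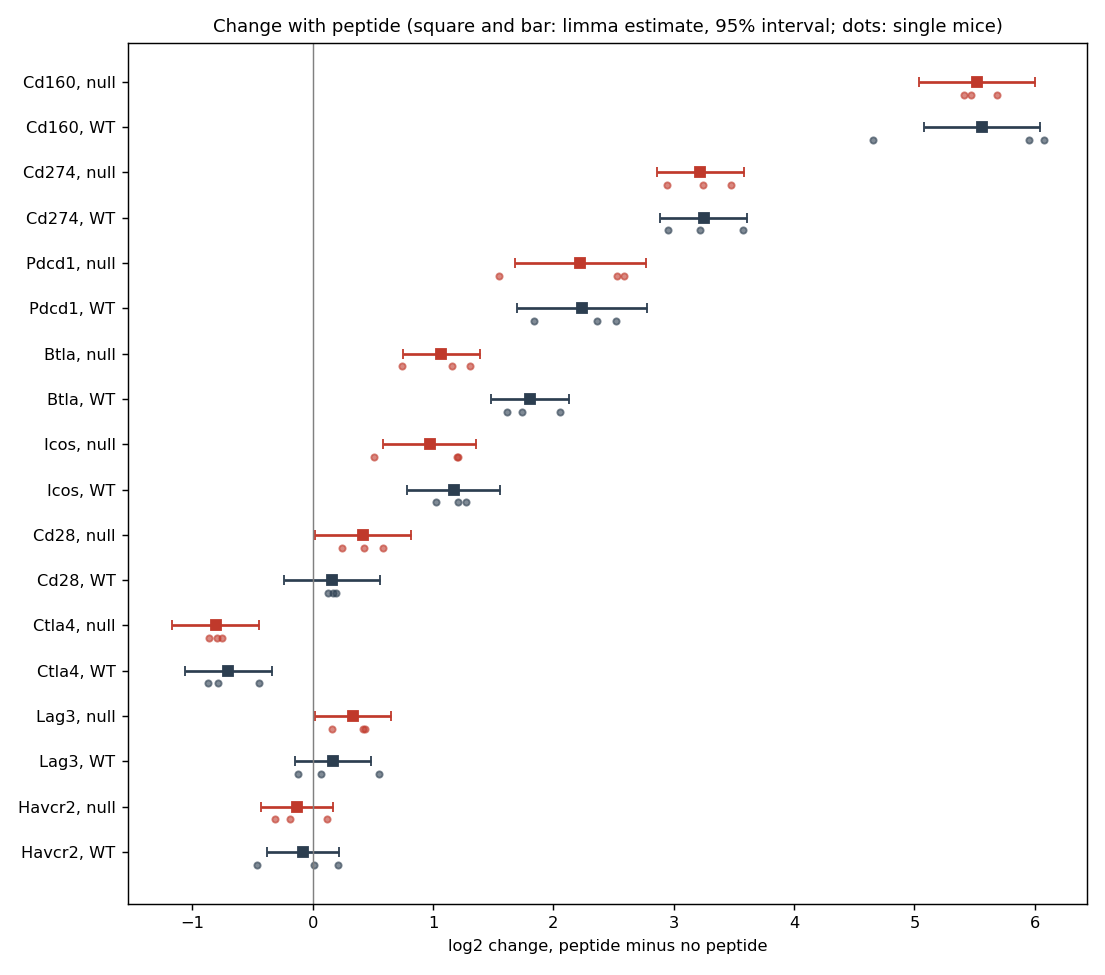
Change with peptide on the log2 scale for each of the 9 genes, with PKD2-null cells above wild-type cells; dots are single mice, and squares with bars are limma estimates with 95% intervals. Cd160, Cd274, Pdcd1, Btla and Icos lie above 0 and Ctla4 below 0 in all 6 mice.

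Cd28, the main co-stimulatory receptor of naive T cells, is next to Ctla4 and Icos on chromosome 1, in the order Cd28, Ctla4, Icos. It read 11.30, 10.59 and 11.34 in PKD2-null cells with peptide, against 10.71, 10.34 and 10.91 without. The wild-type signals were 10.81, 10.75 and 10.69 with peptide and 10.64, 10.56 and 10.56 without. In PKD2-null cells the groups overlapped, with mouse 2 low in both, and in wild-type cells they were apart by a small step. The change of 0.42 in PKD2-null cells (95% interval 0.024 to 0.82) did not pass the test (limma adjusted p = 0.13), nor did that of 0.16 in wild-type cells (interval -0.23 to 0.56, adjusted p = 0.6). With the arrays paired by mouse the change in PKD2-null cells passed it (adjusted p = 0.0053), and it did so without PKD2-null mouse 2, at 0.51 (adjusted p = 0.004). The paired change in wild-type cells did not (adjusted p = 0.22). So 3 neighbouring genes of 1 receptor family showed a rise (Icos), a fall (Ctla4) and a change that passed only in some fits (Cd28).

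Lag3 and Havcr2, receptors known from activated and chronically stimulated T cells, were dim. Lag3 lay between 3.86 and 4.64 and Havcr2 between 3.92 and 4.55, below the median of the array in 12 of 12 arrays. Lag3 changed by 0.34 with peptide in PKD2-null cells (95% interval 0.023 to 0.65, limma adjusted p = 0.12) and by 0.17 in wild-type cells (interval -0.15 to 0.48, adjusted p = 0.47). Havcr2 changed by -0.13 in PKD2-null cells (interval -0.43 to 0.17, adjusted p = 0.61) and by -0.079 in wild-type cells (interval -0.38 to 0.22, adjusted p = 0.75). At such signals a probe set can miss a change, so these intervals describe the arrays and not the absence of a response.

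The order of the 4 groups differed between genes. For Cd160 and Cd274 wild-type cells with peptide came highest and PKD2-null cells with peptide next, and for Pdcd1 and Icos the order of these 2 groups was the other way round. In all of these 4 genes the group pairs of equal treatment overlapped, except that the 3 Icos arrays of PKD2-null cells without peptide lay above the 3 of wild-type cells. Without peptide the arrays of the genotypes did not overlap for 16.4% of all genes. Ctla4 ran from PKD2-null cells without peptide (9.24 ± 0.24) over wild-type cells without (8.74 ± 0.24) and PKD2-null cells with peptide (8.44 ± 0.21) to wild-type cells with it (8.04 ± 0.23), and each group overlapped the next (SD, n = 3). Btla ran from wild-type cells with peptide (10.34 ± 0.18) and PKD2-null cells with peptide (10.20 ± 0.066) to PKD2-null cells without (9.13 ± 0.35) and wild-type cells without (8.54 ± 0.056), and of these only the first pair overlapped.

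Profiles over the 12 arrays, each centred on its gene's mean, were compared with those of all other genes by the root mean square of the log2 differences. Nearest to Cd160 were Tnfsf14 (0.352) and Spry1 (0.494). Tnfsf14 encodes LIGHT, a ligand of HVEM, the receptor that CD160 and BTLA also bind. Cd274 was nearest to Ccdc86 (0.204) and Ccnd2 (0.206), and Pdcd1 to Cd69 (0.197), an early activation antigen, and Idi1 (0.217). The nearest to Btla were Bid (0.118) and Ndc1 (0.153), to Icos Anapc15 (0.169) and Msmo1 (0.184), and to Ctla4 Pisd-ps3 (0.155) and Bicral (0.165). These are descriptions over 12 arrays that share 4 groups.

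The second question was whether PKD2 loss altered these responses. Called differences between the genotypes numbered 0 of 9 with peptide (limma), where 1.64% of all genes were called, and 2 of the 9 had an unadjusted p under 0.05 (Ctla4 and Icos), as 17.6% of all genes did. Without peptide 0 of 9 were called, where 0.044% of all genes were, and 3 had an unadjusted p under 0.05 (Btla, Icos and Ctla4), as 10.6% of all genes did. For the difference of the peptide effects 0 of 9 were called, where 0.0055% of all genes were, and 1 had an unadjusted p under 0.05 (Btla), as 7.71% of all genes did. The intervals bound what could have been missed. For the 3 strongest responders the peptide effect in PKD2-null cells minus that in wild-type cells was -0.038 for Cd160 (95% interval -0.72 to 0.64), -0.029 for Cd274 (-0.54 to 0.48) and -0.017 for Pdcd1 (-0.79 to 0.75), against effects between 2.22 and 5.56.

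**Figure D3:**
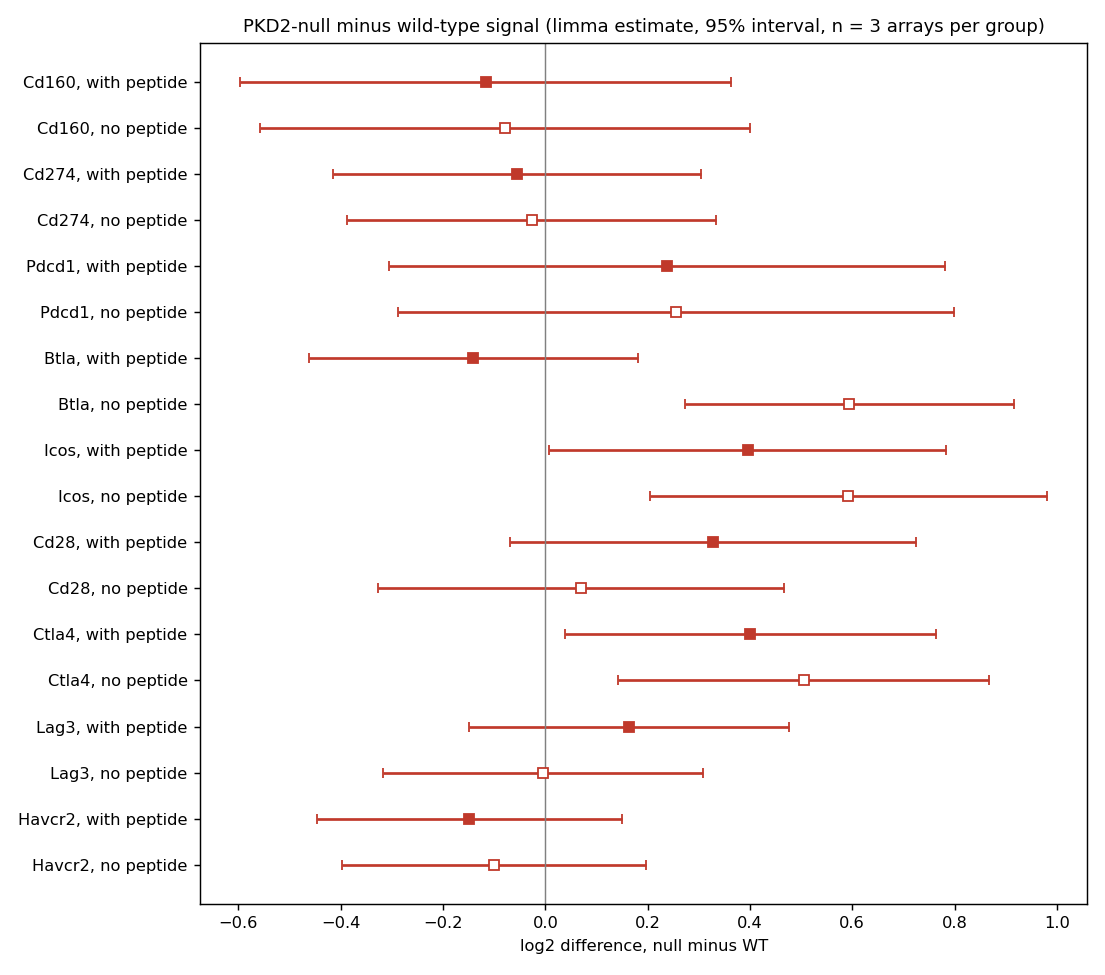
Difference between PKD2-null and wild-type cells on the log2 scale for each of the 9 genes, with peptide (filled) above without (open); squares with bars are limma estimates with 95% intervals (n = 3 arrays per group). Without peptide the intervals of Btla (0.27 to 0.92), Icos (0.20 to 0.98) and Ctla4 (0.14 to 0.87) lie above 0, and 0 of the 9 genes passed the adjusted test.

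Before peptide, Btla was 0.59 higher in PKD2-null cells (1.51-fold, SE 0.15), at 9.13 ± 0.35 in PKD2-null and 8.54 ± 0.056 in wild-type cells (SD, n = 3). The 3 arrays of each genotype did not overlap, which held for 16.4% of all genes, and the adjusted p was 0.22 (limma). Without PKD2-null mouse 2, whose value of 9.53 was the highest, the difference was 0.39 (adjusted p = 0.29). B cell markers lay higher too: 9 of 9 had higher means in PKD2-null cells without peptide, with a median difference of 0.66. In limma 0 of these 9 were called and 9 had an unadjusted p under 0.05, where 10.6% of all genes did. The mean over the list was 8.84, 9.44 and 8.76 in PKD2-null cells, against 8.28, 8.41 and 8.34 in wild-type cells. PKD2-null mouse 2 was highest in both. Btla is known to be expressed in B cells, and the part of these cells in the difference was not tested.

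Icos was 0.59 higher in PKD2-null cells before peptide (1.51-fold, SE 0.18), at 10.06 ± 0.057 in PKD2-null and 9.47 ± 0.20 in wild-type cells. The groups did not overlap in any of its 3 probe sets, which were read on the same arrays. At 1 probe set per gene this held for 16.4% of all genes. The adjusted p was 0.34, and 0.43 and 0.5 for the other probe sets (limma). Ctla4 was 0.51 higher in PKD2-null cells without peptide (95% interval 0.14 to 0.87, adjusted p = 0.39), with the highest wild-type array (9.01) above the lowest PKD2-null array (8.97). Foxp3 read 5.30, 5.35 and 5.16 in PKD2-null cells without peptide, against 4.99, 4.50 and 4.70 in wild-type cells, a difference of 0.54 that was not called (adjusted p = 0.45). Over 4 markers of CD4 and regulatory T cells (Cd4, Zbtb7b, Foxp3 and Ikzf2), 2 were higher and 2 lower in PKD2-null cells without peptide (median difference 0.079). The mean over these 4 was 6.50 to 6.67 in PKD2-null cells and 6.30 to 6.61 in wild-type cells, and their part in the Icos and Ctla4 values was not tested.

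With peptide, Ctla4 was 0.40 higher in PKD2-null cells (95% interval 0.038 to 0.76, limma adjusted p = 0.27), Icos 0.40 higher (0.0070 to 0.78, adjusted p = 0.31) and Cd28 0.33 higher (-0.069 to 0.72, adjusted p = 0.42). Icos and Cd28 depended on 1 animal. Without PKD2-null mouse 2 the Icos difference was 0.63 (adjusted p = 0.049) and the Cd28 difference 0.57 (adjusted p = 0.014), and both were then called. The gain in calls was not particular to these genes. Over all probe sets, calls between the genotypes with peptide rose from 531 with every mouse kept to 1150 without PKD2-null mouse 2. That mouse had the lowest CD8 T cell marker mean with peptide among the PKD2-null mice, 10.71 against 11.22 in each of the others, and wild-type cells had 10.72, 10.78 and 10.56. All 5 CD8 T cell markers had higher means in PKD2-null than in wild-type cells with peptide (median difference 0.30; 0 called in limma and 3 with an unadjusted p under 0.05, where 17.6% of all genes had one), and their part in these values was not tested. Of the genes with large responses, the differences with peptide were 0.24 for Pdcd1 (adjusted p = 0.7), -0.12 for Cd160 (adjusted p = 0.85), -0.14 for Btla (adjusted p = 0.7) and -0.056 for Cd274 (adjusted p = 0.91).

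**Figure D4:**
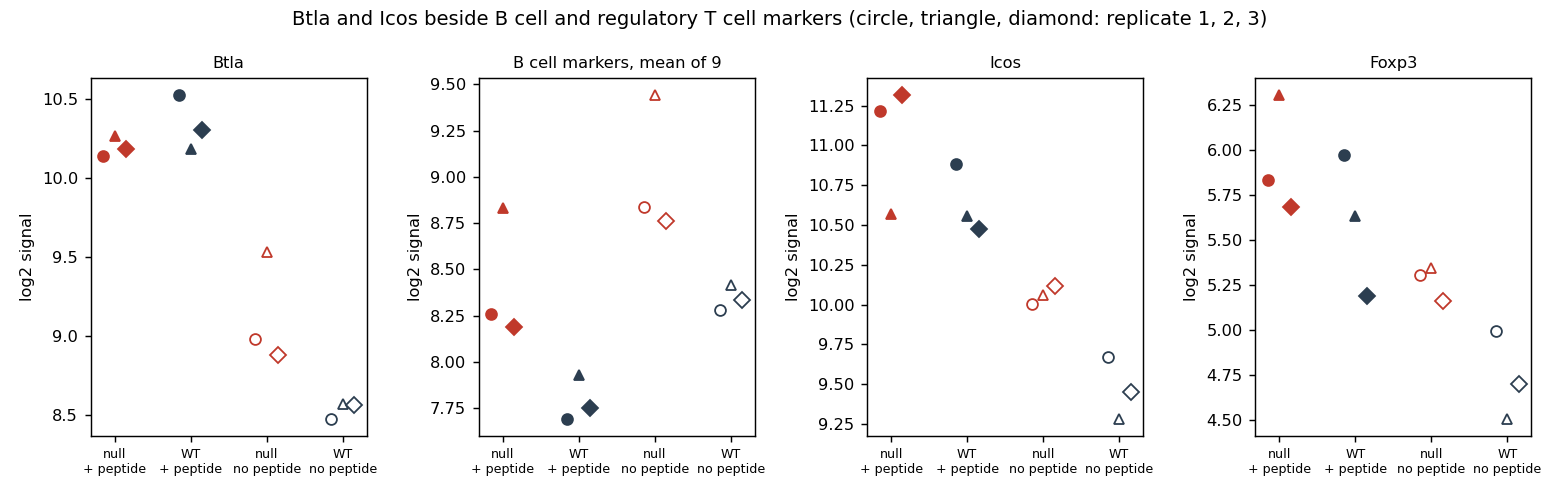
Log2 signal of Btla, of the mean over 9 B cell markers, of Icos and of Foxp3 in each array, 1 panel each, with PKD2-null arrays to the left of wild-type arrays and open points without peptide; circle, triangle and diamond are mouse 1, 2 and 3. Without peptide the B cell mean is 8.76 to 9.44 in PKD2-null cells and 8.28 to 8.41 in wild-type cells.

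Btla showed the smallest p of the 9 for an unequal peptide effect. The rise per mouse was 1.16, 0.74 and 1.31 in PKD2-null mice, against 2.06, 1.62 and 1.74 in wild-type mice. No PKD2-null mouse reached the lowest wild-type mouse, which held for 18.5% of all genes in 1 direction or the other. The difference of the effects was -0.74 (SE 0.21, 95% interval -1.19 to -0.28, unadjusted p = 0.0041), and it did not pass over all probe sets (limma adjusted p = 0.49). The genotypes lay 0.59 apart without peptide (PKD2-null higher), and their difference with peptide was -0.14 (interval -0.46 to 0.18). Cd28 was the other gene whose rises per mouse did not overlap, at 0.58, 0.25 and 0.43 in PKD2-null mice and 0.17, 0.19 and 0.13 in wild-type mice, with a difference of 0.26 (adjusted p = 0.88). In its other probe set the rises overlapped, at 0.69, 0.33 and 0.44 in PKD2-null mice and 0.34, 0.21 and 0.14 in wild-type mice. For the 5 genes Ctla4, Icos, Pdcd1, Cd274 and Cd160, the adjusted p lay between 0.92 and 1.

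The ligands and partner receptors of these genes were read next. Of 25 such genes, 7 rose and 3 fell with peptide in PKD2-null cells, and 8 rose and 3 fell in wild-type cells. Between the genotypes 0 were called in either state. In limma 2 had an unadjusted p under 0.05 with peptide and 2 without, where 17.6% and 10.6% of all genes did. Tnfsf14 rose by 5.79 in PKD2-null cells (limma adjusted p = 9.7e-10) and by 6.01 in wild-type cells (adjusted p = 6.1e-10). Its signals without peptide averaged 4.27 in PKD2-null and 4.20 in wild-type cells, below the median over all values, so the size of these rises is poorly resolved. Cd5 and Cd6, scavenger-type receptors that restrain antigen receptor signals, rose by 1.69 and 1.73 in PKD2-null cells and by 1.88 and 1.58 in wild-type cells. Vsir, which encodes the inhibitory B7-type protein VISTA, rose by 1.27 in PKD2-null cells and by 1.09 in wild-type cells. Cd200, an inhibitory ligand and the neighbour of Btla on chromosome 16, rose by 0.59 in PKD2-null cells (adjusted p = 0.014, and 0.11 without PKD2-null mouse 3) and by 1.19 in wild-type cells (adjusted p = 6.4e-05). The difference of the Cd200 effects was not called (-0.60, limma adjusted p = 0.64). Lgals9, which encodes a ligand reported for TIM-3, fell by 0.91 in PKD2-null cells and by 0.68 in wild-type cells. The ligands of CD28 and ICOS, chosen here after their values were seen, did not pass the test: with peptide Cd80 changed by -0.12 in PKD2-null and 0.34 in wild-type cells, Cd86 by -0.19 in PKD2-null and 0.085 in wild-type cells, and Icosl by -0.18 in PKD2-null and -0.064 in wild-type cells.

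**Figure D5:**
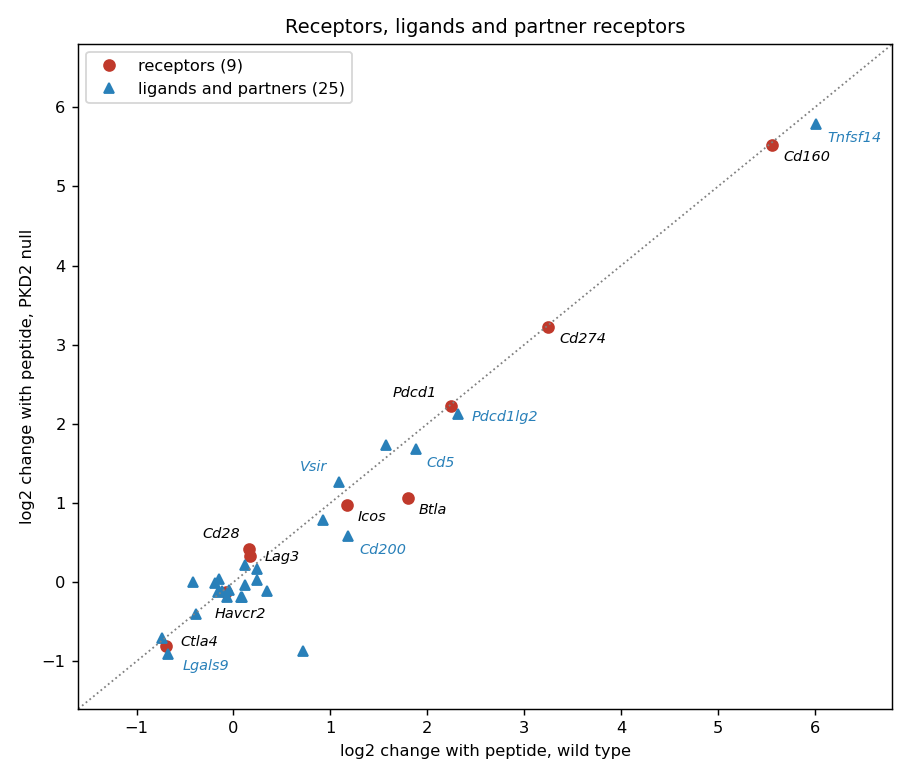
Change with peptide on the log2 scale in PKD2-null cells (vertical axis) against that in wild-type cells (horizontal axis) for the 9 receptors and 25 ligands and partners; the line marks equal change. Cd160 (5.52 in PKD2-null and 5.56 in wild-type cells) and Tnfsf14 (5.79 and 6.01) are the farthest from 0.

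Signalling genes close to the antigen receptor and to these co-receptors changed in both directions. Of 28 measured, 7 rose and 13 fell with peptide in PKD2-null cells, and 8 rose and 12 fell in wild-type cells. Ubash3b, a phosphatase that restrains antigen receptor signalling, rose by 2.81 in PKD2-null cells and 3.23 in wild-type cells, and Zap70, the kinase recruited to the receptor, by 2.16 in PKD2-null cells and 2.17 in wild-type cells. As a mean over its probe sets Zap70 rose by 1.29 in PKD2-null cells and by 1.30 in wild-type cells. Ptpn6, which encodes the phosphatase SHP-1 that inhibitory receptors recruit, rose by 1.18 in PKD2-null cells and by 1.13 in wild-type cells (limma adjusted p = 4.4e-05 in PKD2-null and 4.2e-05 in wild-type cells). Sla2, an adaptor that restrains receptor signals, fell by 2.06 in PKD2-null cells and by 2.15 in wild-type cells. Sla, on the same list, rose by 0.92 in PKD2-null cells (limma adjusted p = 0.0011) and by 1.77 in wild-type cells (adjusted p = 3.6e-06). The difference of these effects was not called (-0.85, adjusted p = 0.48). For such differences 0 of the 28 were called in limma, and 2 had an unadjusted p under 0.05, where 7.71% of all genes did. Between the genotypes 0 of the 28 were called (limma), and 11 had an unadjusted p under 0.05 with peptide and 6 without, where 17.6% of all genes did with peptide and 10.6% without.

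Transcription regulators known from the control of these receptor genes changed with peptide, and some differed between the genotypes. Of 34 measured, 19 rose and 6 fell with peptide in PKD2-null cells, and 20 rose and 6 fell in wild-type cells. Tbx21, which encodes T-bet, rose by 5.23 in PKD2-null and 5.67 in wild-type cells, Irf4 by 3.15 in PKD2-null and 3.87 in wild-type cells, and Egr2 by 3.10 in PKD2-null and 3.58 in wild-type cells. With peptide, 4 were called higher in PKD2-null cells and 1 lower, where 1.09% and 0.544% of all genes were. Without peptide 0 were called. In limma 13 had an unadjusted p under 0.05 with peptide and 11 without, where 17.6% and 10.6% of all genes did. For the difference of the peptide effects 0 of the 34 were called. An unadjusted p under 0.05 for it was seen in 8, where 7.71% of all genes had one. Bcl6, a repressor, averaged 9.48 ± 0.18 in PKD2-null and 8.53 ± 0.16 in wild-type cells with peptide (SD, n = 3), a difference of 0.95 (limma adjusted p = 0.0098). Nfatc3 was 0.62 higher (adjusted p = 0.011), Nfatc2 0.57 higher (adjusted p = 0.03) and Bach2, another repressor, 0.43 higher (adjusted p = 0.048). Nfatc3, Nfatc2 and Bach2 fell with peptide in both genotypes, with changes of -1.28, -0.44 and -0.38 in PKD2-null cells and of -1.79, -0.92 and -0.77 in wild-type cells. Fosl1, a partner in AP-1, rose by 2.37 in PKD2-null cells and by 3.65 in wild-type cells and was 0.85 lower in PKD2-null cells with peptide (adjusted p = 0.046). These 5 calls were not stable. That of Bcl6 was lost in 1 of 15 alternatives (0.92, adjusted p = 0.091, without PKD2-null mouse 1), and that of Nfatc3 in 2 (adjusted p = 0.089 without PKD2-null mouse 1 and 0.053 without wild-type mouse 2). Without PKD2-null mouse 1 or 3 or wild-type mouse 1 or 2, the calls of Nfatc2, Bach2 and Fosl1 were all lost, and those of Bach2 and Fosl1 also without wild-type mouse 3. Over the 15 alternatives the adjusted p ran up to 0.82 for Nfatc2, 0.36 for Bach2 and 0.19 for Fosl1, and as a mean over probe sets the difference was -0.035 for Nfatc2 and 0.18 for Bach2. With every mouse kept, these 3 calls were also lost when only the arrays compared were fitted (adjusted p = 0.11 for Nfatc2, 0.15 for Bach2 and 0.15 for Fosl1). Those of Bach2 and Fosl1 were lost with median centring (0.053 for Bach2 and 0.052 for Fosl1), that of Bach2 with a random mouse block (0.051) and that of Fosl1 with the sample number as a block (0.055). B cell markers lay higher in PKD2-null cells with peptide in 8 of 9, of which 2 were called, with a mean over the list of 8.19 to 8.83 in PKD2-null and 7.69 to 7.93 in wild-type cells, and their part in these differences was not tested. The calls in PKD2-null cells with against without peptide were lost for Bach2 (adjusted p = 0.098) and Nfatc2 (0.06) without PKD2-null mouse 3, and as a mean over its probe sets Nfatc2 changed with peptide by -0.040 in PKD2-null and -0.070 in wild-type cells (0.73 and 0.48).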

How the data were processed

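Lymph node cells of 3 PKD2-null and 3 wild-type P14-TCR mice were measured with and without peptide on 12 Affymetrix arrays. The authors deposited log2 signals for 45101 probe sets. These came from Affymetrix Expression Console 1.1, per the submitters' processing notes, and their normalization was not given in the sources used here. All signals lay between 2.43 and 15.07 and the array medians between 4.66 and 4.72, so no further normalization was applied. Arrays have no read depth, and their number limits the precision. After 64 controls were left out, 34945 probe sets had 1 gene symbol, 9160 had none and 932 had several, which served for no gene.

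A model of the 4 group means was fitted to all 45037 probe sets in limma (version 3.58.1, R 4.3.3; 8 residual and 4.18 prior degrees of freedom). Two-sided p-values were adjusted after Benjamini and Hochberg and called under 0.05. The 5 comparisons were peptide against no peptide in each genotype, PKD2-null against wild type with and without peptide, and the difference of the peptide effects. The fit was tested on simulated data. The members and gene lists were chosen with earlier results of these data known. Named beside the members are called genes of each list with the largest changes with peptide (up to 6 per list and genotype), list genes called between genotypes, and the genes with the nearest profiles. Alternatives were quantile normalization, median centring, array weights, an intensity trend with a robust prior, a filter on dim probe sets, the mean over a gene's probe sets, fits on only the groups compared, the mouse or the sample number as a block, and leaving out each mouse.

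The labels give the mouse of each array. The main fit did not use this pairing, so its intervals and p-values are unpaired. Pairing by mouse served for the changes per mouse and for the fits with the mouse as a block. After the group means were removed, the pair of arrays of a mouse correlated at 0.116 to 0.577, and arrays of different mice of a genotype at 0.129 at most.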

Additional observations from a re-analysis of the deposited data

How the results depend on the processing

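All 6 called peptide responses (Cd160, Cd274, Pdcd1, Btla, Icos and Ctla4) kept their direction and passed the test in both genotypes under all 16 alternatives. With the mouse as a fixed replicate block, Cd28 was called too in PKD2-null cells (0.42, adjusted p = 0.0053), which made 7 genes, as did leaving out PKD2-null mouse 2. That block gives no value for differences between genotypes. Counts of called genes were 0 without peptide and 0 for the difference of the effects under all alternatives that gave a value, and with peptide they were 0 except when a mouse was left out (0 to 2, the 2 being Icos and Cd28 without PKD2-null mouse 2). The filter on dim probe sets removed Lag3 and Havcr2.

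Over all probe sets, the calls between genotypes were less stable: 531 with peptide, against 91 with only the arrays compared, 834 with the sample number as a replicate block and 69 to 1150 with a mouse left out. Without peptide there were 17, against 3 with only the arrays compared, 57 with an intensity trend and 32 with quantile normalization. There were 44 with the mouse as a random block, 107 with the sample number and 3 to 64 with a mouse left out. For the difference of the effects there was 1, against 43 with the fixed block, 9 with the random block, 4 with the trend and 0 to 11 with a mouse left out. The mean over probe sets gives 1 value per gene, so its counts are of genes. It called 32 genes without peptide, against 8 in the main fit. For the difference of the effects it called 4 genes, against 1 in the main fit.

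The sign turned in 33 values of the 9 genes, 0 of them called in either fit, and in 6 of other named genes, and the cause was not tested. With the mean over probe sets Cd160 differed between genotypes by 0.051 with and 0.12 without peptide. For Lag3 without peptide the difference was 0.023 after quantile normalization and 0.013 after median centring. The difference of the effects was 0.021 for Pdcd1 and 0.049 for Cd274 after quantile normalization, and 0.15 and 0.083 with array weights. With a mouse left out, the peptide change in wild-type cells ran over -0.22 to 0.11 for Havcr2 and -0.024 to 0.31 for Lag3, and the genotype difference of Cd160 with peptide over -0.36 to 0.042. Without peptide the genotype difference ran over -0.091 to 0.10 for Lag3, -0.23 to 0.0015 for Havcr2, -0.20 to 0.16 for Cd274, -0.25 to 0.13 for Cd160, -0.037 to 0.54 for Pdcd1 and -0.057 to 0.23 for Cd28. The difference of the effects ran over -0.49 to 0.22 for Cd160, -0.22 to 0.32 for Pdcd1, -0.24 to 0.097 for Havcr2, -0.19 to 0.025 for Ctla4, -0.18 to 0.13 for Cd274 and -0.31 to 0.034 for Icos. Of the other named genes, Icosl changed with peptide in wild-type cells by 0.045 after quantile normalization, and Cd86 by -0.054 as the mean over probe sets. That mean gave 0.049 for Cd80 with peptide in PKD2-null cells, which ran over -0.38 to 0.028 with a mouse left out, and -0.035 for Nfatc2 between genotypes with peptide, where it had been called. It also lost the peptide calls of Nfatc2 in both genotypes (-0.040 in PKD2-null and -0.070 in wild-type cells) and of Ikzf2 in wild-type cells (-0.47). For Btla the difference of the effects stayed negative, with an adjusted p of 0.21 to 0.53 over the settings and 0.45 to 0.98 with a mouse left out. Lag3 and Havcr2 were below the array median throughout, so their signal over background limits what could be seen.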
